A study of Equus caballus with 23 samples.

Results

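The fast myosin heavy chain locus described here consists of 2 neighbouring genes on chromosome 11, both called MYH2 in the authors' tables, out of 26991 genes in the count table. They are ENSECAG00000022909 (chromosome 11, 52973970 to 52998897, below gene A) and ENSECAG00000024667 (chromosome 11, 53001919 to 53027479, below gene B). They were chosen by identifier because their differences between time points were already known, so those differences are given as a description without a test. A search of the authors' tables for any other gene with a symbol starting with MYH in the surrounding stretch of the same chromosome added none, so the locus has 2 members, and both passed the filter on low counts.

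Myosin heavy chains are the motor proteins of the thick filament, and the isoform a fibre makes sets much of its shortening speed. In adult limb muscle of horses, slow type I fibres carry the product of MYH7, type IIa fibres that of MYH2 and the faster type IIx fibres that of MYH1. The fast genes lie side by side in 1 cluster with developmental isoforms, and their coding sequences are very alike. Type IIx fibres are glycolytic and tire fastest, whereas type IIa fibres combine speed with oxidative capacity.

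RNA of Arabian horses in race training was sequenced from the gluteus medius, a muscle of the hindquarter taken by needle. At T0 the 5 horses (3 male, 2 female) were 2.5 years old and untrained. At T1 the 8 horses (4 male, 4 female) were 3 years old and had finished the phase of intense gallops, and at T2 the 10 horses (7 male, 3 female) were 3 years old and had finished a racing season. The labels name no treatment beyond training and do not tie libraries to individual horses, so libraries m1 to m23 were compared as unpaired samples and p-values measure the spread between them. Age differed between T0 and the later time points and cannot be told apart from training there.

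The T0 libraries held 12604125 to 17477172 counts, the T1 libraries 15417737 to 23641809 and the T2 libraries 12185608 to 19804694. Levels are given as CPM (counts divided by the library size, times 1e6) on library sizes scaled by the TMM method. All 6 skeletal muscle markers (ACTA1, CKM, DES, TTN, NEB and MB) were present, with a summed level of 36126 CPM or more in every library. The summed level stayed within 0.45 to 7.36 CPM for the 1 cardiac marker that had an identifier (TNNI3, of 5 listed), 46.1 to 402 CPM for 4 of 5 smooth muscle markers, 64.5 to 382 CPM for 5 of 6 fibroblast markers and 78.1 to 323 CPM for 3 of 5 adipocyte markers. It stayed within 128.5 to 269.7 CPM for 5 endothelial markers, 3.63 to 13.6 CPM for 3 of 5 macrophage markers and 2.65 to 18.5 CPM for MYOG, the 1 of 6 satellite cell and regeneration markers with an identifier. No marker that had an identifier was at 0 over all libraries. One T1 library, m3, stood apart in the heavy chains, and the main values that rest on it are given with and without it.

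The naming of the 2 genes is not settled by the sources used here. RefSeq's annotation of the TB-T2T horse assembly holds 1 gene for each symbol and lists, in order along chromosome 11, MYH13, MYH8, the transcribed pseudogene MYH4, MYH1, MYH2 and MYH3, followed by SCO1 and ADPRM. That table pairs neither Ensembl identifier with a symbol. In the positions used here, the unnamed gene ENSECAG00000025060 lies between gene B and SCO1, where RefSeq has MYH3. By this order alone gene A would stand at the place of MYH1 and gene B at that of MYH2. The genome build of these positions is not given, and the match was not tested by sequence. One of the 2 genes may therefore correspond to another fast heavy chain than MYH2, and each is named below by its identifier. Each spans about the same length (24928 and 25561 bases), with 3021 bases between them, and each has 1 annotated transcript, ENSECAT00000026554 for gene A and ENSECAT00000027044 for gene B. The transcript table held the same counts as the gene table in every library. Because the genes are close paralogs and reads were short, the division of reads between them is uncertain.

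Gene A was lower in every T1 library than in any T0 library. In T0 its level was 10011 CPM in m8, 17094 CPM in m9, 25744 CPM in m10, 17613 CPM in m12 and 41411 CPM in m13, with a mean of 22375 CPM ± 12012 (SD, n = 5). In T1 it ran from 82.2 CPM in m3 through a median of 2112 CPM to 5509 CPM in m6, with a mean of 2086 CPM ± 1786 (SD, n = 8). In T2 it ran from 4675 CPM in m23 through a median of 13168 CPM to 28773 CPM in m19, with a mean of 14985 CPM ± 7958 (SD, n = 10). Thus T0 and T1 did not overlap, and 9 of 10 T2 libraries lay above the highest T1 library, the exception being m23. How many of all genes separate T0 from T1 in this way was not counted. T2 and T0 overlapped, with 3 of 10 T2 libraries below the lowest T0 library and 1 of 5 T0 libraries above the highest T2 library.

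On the log2 scale the fitted difference of gene A was -3.42 ± 0.64 (SE) for T1 minus T0, a 10.7-fold lower level. The difference was 2.84 ± 0.58 for T2 minus T1, a 7.18-fold higher level, and -0.58 ± 0.60 for T2 minus T0. Each pair of these comparisons shares 1 time point's libraries. Without m3 the T1 minus T0 value was -3.22 and the T2 minus T1 value 2.65. The T2 minus T0 value was -0.23 without T0 library m13. As a background, edgeR's quasi-likelihood test called 6.91% of 11545 tested genes in T1 minus T0, 27.6% in T2 minus T1 and 16% in T2 minus T0, and nothing is read from the place of the 2 chosen genes in these shares. In the authors' deposited tables, whose letter codes were matched to time points by mean normalized count, the log2 fold changes were -1.43 for T1 minus T0, 1.73 for T2 minus T1 and -0.4 for T2 minus T0. They are smaller in size than the fitted values above. The submitters' notes name DESeq2 but not its version or settings, so the 2 sets may not be the same measure.

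Gene B had similar means at the 3 time points, with T1 libraries m3 and, less so, m11 lower than the rest. The other T1 libraries ran from 19285 CPM in m1 to 27987 CPM in m7, against a T0 median of 14125 CPM. The time point difference without both m3 and m11 is not given here. In T0 its level was 14125 CPM in m8, 21032 CPM in m9, 10614 CPM in m10, 23841 CPM in m12 and 13181 CPM in m13, with a mean of 16559 CPM ± 5606 (SD, n = 5). In T1 the range was 292.8 CPM in m3 to 27987 CPM in m7 with a median of 22456 CPM, and the mean was 18658 CPM ± 9384 (SD, n = 8). In T2 the range was 10933 CPM in m14 to 30139 CPM in m23 with a median of 17772 CPM, and the mean was 18633 CPM ± 6601 (SD, n = 10). All 3 time points overlapped. The second lowest T1 library, m11, had 8602 CPM, and without m3 the T1 mean was 21282 CPM ± 6203 (SD, n = 7).

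The fitted log2 differences of gene B were 0.17 ± 0.51 (SE) for T1 minus T0, -0.00 ± 0.42 for T2 minus T1 and 0.17 ± 0.49 for T2 minus T0. Leaving out m3 moved the first of these to 0.38 and the second to -0.20, and leaving out m11 moved them to 0.29 and -0.10. T1 minus T0 was 0.06 without T0 library m10, 0.07 without m7, 0.10 without m5 or m13, 0.28 without T0 library m9 and 0.34 without T0 library m12. T2 minus T0 was 0.07 without m10 or T2 library m23, 0.10 without m13 or m17, 0.28 without m9 and 0.34 without m12. In the authors' deposited tables the log2 fold changes of this gene were 0.08, -0.01 and 0.12 in the same order. Here too they may not be the same measure as the fitted values.

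**Figure D1:**
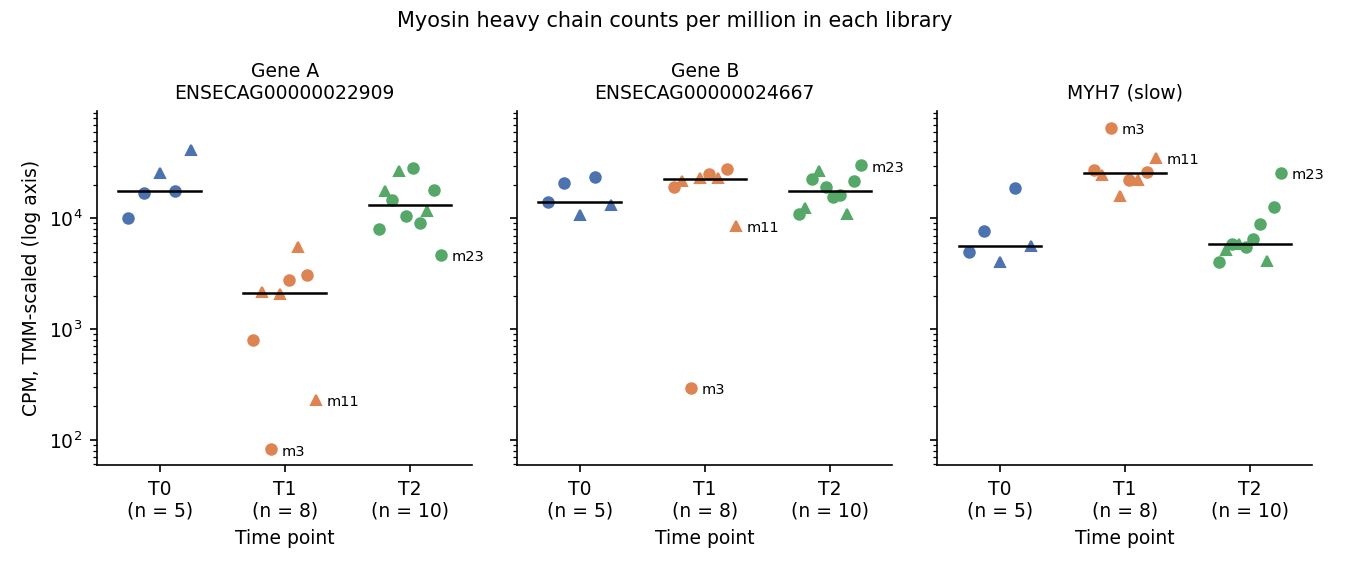
Level of gene A, gene B and MYH7 in each library (CPM on a log axis) at T0, T1 and T2, with circles for males, triangles for females and a black line at the median. Gene A runs from 10011 to 41411 CPM in T0 and from 82.2 to 5509 CPM in T1. Gene B overlaps across time points, with m3 at 292.8 CPM and m11 at 8602 CPM below every T0 and T2 library.

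Added together, which removes the question of how reads were divided between the 2 genes, the locus held 38933 CPM ± 10929 in the 5 T0 libraries (SD), 20744 CPM ± 10735 in the 8 of T1 and 33618 CPM ± 10519 in the 10 of T2. The fitted log2 difference of the sum was -0.91 ± 0.48 (SE) for T1 minus T0, 0.70 ± 0.42 for T2 minus T1 and -0.21 ± 0.47 for T2 minus T0. These values are smaller in size than those of gene A alone in each comparison, though in T2 minus T0 both lie within their SE of 0. Without m3 the T1 mean was 23654 CPM ± 7444 (SD, n = 7), and the differences were -0.70 ± 0.27, 0.50 ± 0.23 and -0.20 ± 0.25 in the same order. The sum was 375 CPM in m3, 8830 CPM in m11 and at least 20080 CPM in the other 6 T1 libraries. It took 4.56% ± 1.24 of all counts in T0, 1.97% ± 1.06 in T1 and 3.31% ± 0.846 in T2. Mitochondrially encoded genes took 42.9% ± 7.77, 53% ± 3.99 and 48.1% ± 2.87 of the counts at these time points. As a share of the counts left without them, the locus took 7.89% ± 1.42, 4.12% ± 2.12 and 6.34% ± 1.40.

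The division of the locus counts between the 2 genes does not depend on library scaling. Transcript lengths were not in the files used here, so these shares compare libraries and do not say which gene had more molecules. The share of gene A in T0 was 41.5% in m8, 44.8% in m9, 70.8% in m10, 42.5% in m12 and 75.9% in m13. In T1 it ran from 2.58% in m11 through a median of 9.45% to 21.9% in m3, and in T2 from 13.4% in m23 through a median of 43.8% to 64.8% in m19. The mean share was 55.1% ± 16.8 over the 5 T0 libraries (SD), 10.6% ± 6.75 over the 8 of T1 and 43.7% ± 14.3 over the 10 of T2. T0 and T1 did not overlap, and of the T2 libraries only m23 lay inside the T1 range. In m3 the share of gene A was the highest of T1, although its level there was the lowest.

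**Figure D2:**
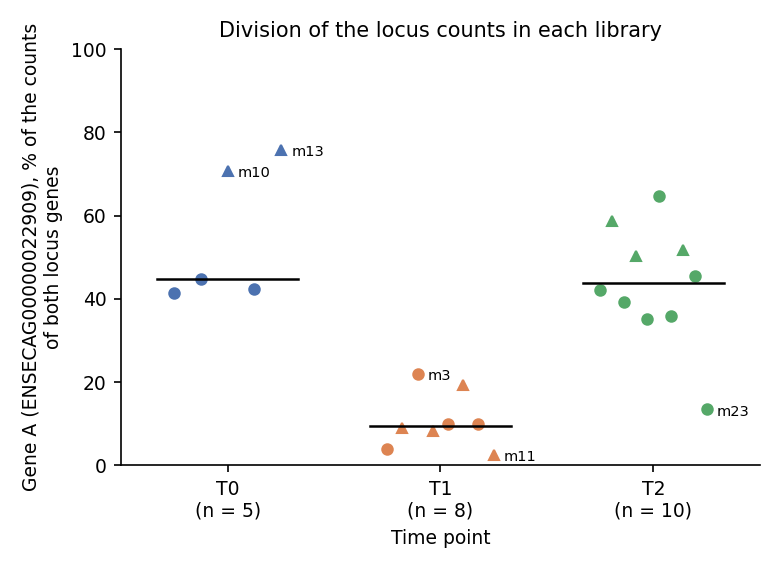
Counts of gene A as a percentage of the counts of both locus genes in each library, by time point, with circles for males, triangles for females and a black line at the median. T1 libraries lie between 2.58% and 21.9%, and T0 libraries between 41.5% and 75.9%.

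MYH7, which encodes the slow heavy chain, is the other adult heavy chain gene of this muscle. Its level in T0 was 8248 CPM ± 6120 (SD, n = 5), with 4039 CPM in m10 as the lowest and 18933 CPM in m12 as the highest value. In T1 it was 29959 CPM ± 15576 (SD, n = 8), with 66049 CPM in m3, and 24803 CPM ± 5912 without it. In T2 it was 8451 CPM ± 6652 (SD, n = 10), with 25920 CPM in m23 and at most 12701 CPM in the other 9 libraries.

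Within the summed counts of the 3 heavy chain genes, gene A took 46.7% ± 18.2 in T0, 4.19% ± 3.47 in T1 and 36.3% ± 13.7 in T2 (SD, n = 5, 8 and 10). Gene B took 36.4% ± 11.9, 38.3% ± 18.7 and 44.5% ± 7.55, and MYH7 took 16.9% ± 8.84, 57.5% ± 21.3 and 19.2% ± 9.61. Without m3 the T1 shares were 4.77% ± 3.30 for gene A, 43.7% ± 11.7 for gene B and 51.5% ± 13.9 for MYH7 (SD, n = 7). The 3 genes together took 5.43% ± 1.13 of all counts in T0, 4.57% ± 0.590 in T1 and 4.14% ± 1.07 in T2, so the libraries differed more in which heavy chain was counted than in their sum.

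**Figure D3:**
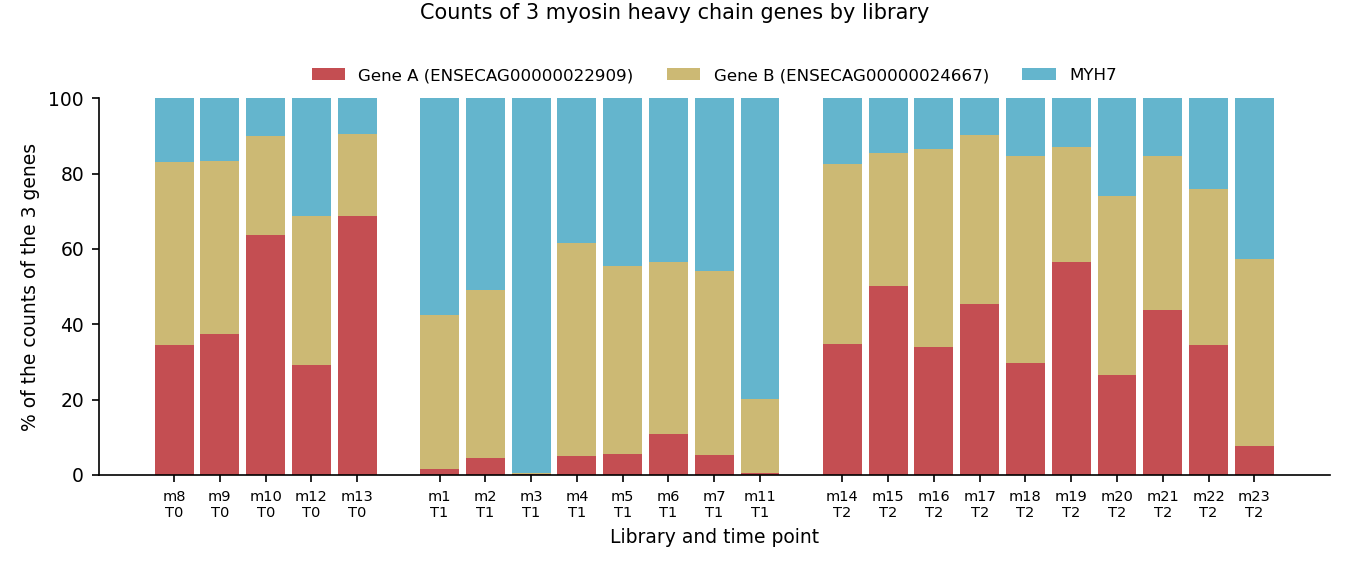
Counts of gene A, gene B and MYH7 as percentages of their sum, with 1 bar for each library, ordered by time point. MYH7 takes 99.4% in m3 and 79.9% in m11, and 42.7% in the T2 library m23.

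Library m3 held 938 counts of gene A and 3343 counts of gene B, and 754026 counts of MYH7. MYH7 thus made up 99.4% of the 3 heavy chains there, against 79.9% in m11 and 38.6% to 57.4% in the other 6 T1 libraries. Among T2 libraries, m23 was the one most like T1, with 42.7% MYH7 and 7.70% gene A but 49.6% gene B. Among T0 libraries, m12 had the most MYH7 (31.4%), and m13 (9.40%) the least.

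Markers of the fibre types were set beside the heavy chains. The summed level of 10 fast fibre markers (of 11 listed, among them ACTN3, TNNT3 and ATP2A1) ranged between 28901 and 59530 CPM at T0, between 4226 (m3) and 29148 CPM at T1 and between 33029 and 72659 CPM at T2, with 9779 CPM in m11. That of the 11 slow fibre markers, MYH7 among them, ranged between 8590 and 32952 CPM at T0, between 30508 and 137860 CPM at T1 and between 10378 and 43006 CPM at T2, with the highest values in m12, m3 and m23. Of the 10 fast markers 3 fell and 0 rose in T1 minus T0 (median log2 difference -1.02), and 9 rose and 0 fell in T2 minus T1 (median 1.15; edgeR, adjusted p under 0.05 over all genes). All 11 slow markers rose in T1 minus T0 (median 2.03), and 10 fell and 0 rose in T2 minus T1 (median -1.61). Of all genes, 3.57% were called higher and 3.34% lower in T1 minus T0, and 12.6% higher and 15.1% lower in T2 minus T1. In T2 minus T0, 0 of the 10 fast and 0 of the 11 slow markers were called, against 16% of all genes. Gene B did not follow the fast marker sum across time points. In m3 the fast markers MYOZ1 (1955 CPM) and CASQ1 (957 CPM) were near their medians over all libraries (1788 and 967 CPM). Every other fast marker with an identifier had its lowest value of all libraries in m3. Among them, TNNT3 had 83.9 CPM against a median of 5787 CPM, and ATP2A1 39.1 CPM against 3432 CPM. The summed fibroblast markers had a median of 205 CPM at T0, 107 CPM at T1 and 148 CPM at T2. Of these 5 markers 2 fell in T1 minus T0, against 3.34% of all genes. The part of fibroblasts in the heavy chain levels was not tested. The part of the fibre mix of a biopsy in the heavy chain levels was not tested, and in bulk tissue fewer fibres of a type and less RNA per fibre cannot be told apart.

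Both locus genes varied widely between libraries of the same time point. The SD of the log2 CPM of gene A was 0.76 in T0, 2.09 in T1 and 0.81 in T2, where the median SD of 6933 genes with a mean log2 CPM of at least 2 was 0.26, 0.26 and 0.27. For gene B the SD was 0.49, 2.22 and 0.52, and for MYH7 it was 0.87, 0.61 and 0.82. A wide spread was thus not particular to the 2 locus genes. Without m3 the T1 values were 1.52 for gene A and 0.57 for gene B, so m3 accounts for most of the T1 spread of the second gene and for less of that of the first.

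**Figure D4:**
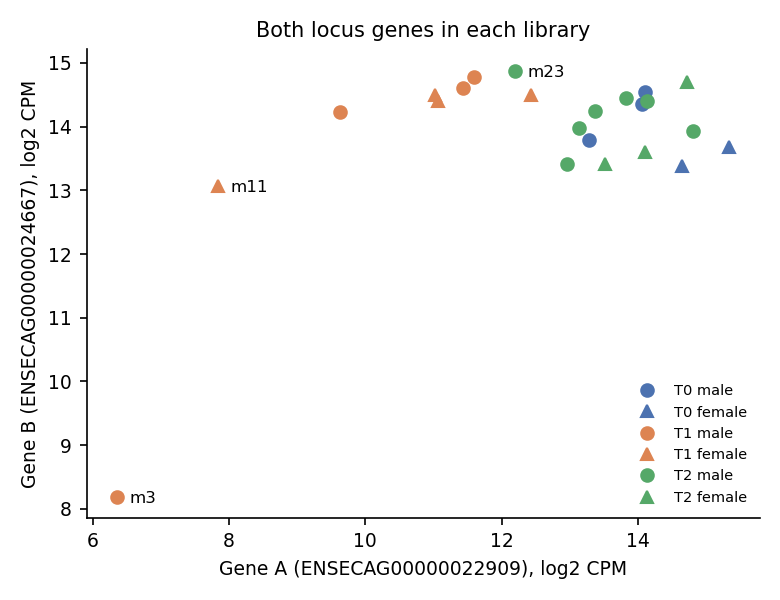
Log2 CPM of gene B against gene A in each library, coloured by time point, with circles for males and triangles for females. T1 libraries m11 and m3 lie apart at the lower left, and the T0 and T2 libraries lie to the right, with m23 nearest to T1.

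How the 2 genes and MYH7 varied together was tested within T1 and within T2, where the differences between time points play no part. Across the T1 libraries gene A and gene B rose and fell together (Pearson's r = 0.86, exact two-sided permutation p = 0.00102, adjusted p = 0.0061 over 6 correlations; Spearman's rho = 0.90, p = 0.00456, adjusted p = 0.0274; n = 8). MYH7 ran against gene A (r = -0.86, exact permutation p = 0.00647, adjusted p = 0.0145; rho = -0.69, p = 0.0694, adjusted p = 0.125) and against gene B (r = -0.91, exact permutation p = 0.00724, adjusted p = 0.0145; rho = -0.67, p = 0.0831, adjusted p = 0.125). None of the 3 passed without m3 and m11, and both relations with MYH7 rested on these libraries. Without them the 2 locus genes had r = 0.67 and rho = 0.77 (exact permutation adjusted p = 0.354 and 0.308, n = 6). The value of r was then -0.22 for gene A with MYH7 (adjusted p = 0.715) and -0.095 for gene B with MYH7 (adjusted p = 0.804).

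Across the 10 T2 libraries the relations differed in size and sign from those in T1, and the difference between time points was not tested. Gene A and gene B had r = -0.03 (permutation p = 0.926, adjusted p = 0.926) and rho = 0.05 (p = 0.891, adjusted p = 0.891). Gene A and MYH7 had r = -0.40 (permutation p = 0.257, adjusted p = 0.308) and rho = 0.08 (p = 0.838, adjusted p = 0.891). Gene B and MYH7 had r = 0.70 (permutation p = 0.0167, adjusted p = 0.025) and rho = 0.73 (p = 0.0202, adjusted p = 0.0607). The last relation had r = 0.43 without m14 and m23 (exact permutation adjusted p = 0.583, n = 8), so it too rested on the extreme libraries. Without m19 and m23 the 2 locus genes had r = 0.61 (exact permutation adjusted p = 0.354, n = 8) and gene A with MYH7 had r = 0.26 (adjusted p = 0.715). The genes compared share the library total, of which each takes a visible part.

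Sex was not used in choosing the genes and was tested in a model with time point. The log2 difference of males minus females was -0.68 ± 0.47 (SE) for gene A and 0.22 ± 0.40 for gene B, and neither passed (edgeR's quasi-likelihood test, adjusted p = 0.851 and 0.964). In T0 gene A had 25744 and 41411 CPM in the 2 females and at most 17613 CPM in the 3 males. In T2 it averaged 18755 CPM ± 7635 in females (SD, n = 3) and 13369 CPM ± 8087 in males (SD, n = 7). Between the sexes 0% of the 11545 genes passed in edgeR, while 719 (6.23%) had an unadjusted p under 0.05. DESeq2 made 1 call, and limma voom, weighting each library, made 3. The difference between the sexes in the time point comparisons did not pass for either gene. It was 0.61 ± 1.31 for T1 minus T0, 0.08 ± 1.12 for T2 minus T1 and 0.68 ± 1.30 for T2 minus T0 in gene A, with edgeR adjusted p-values of at least 0.998. The same terms were -0.81 ± 1.10, 0.31 ± 0.93 and -0.50 ± 1.08 in gene B. Of all genes 0% passed for these terms in edgeR, and 4.18%, 1.55% and 3.88% had an unadjusted p under 0.05 in the order above. DESeq2 called 3, 3 and 4 genes.

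A further 5 annotated genes overlap the same stretch of chromosome 11, and these were tested between time points after the files had been seen. Of these, 3 have no symbol in the authors' tables: ENSECAG00000019568 (52794922 to 52849540), ENSECAG00000019706 (52864676 to 52893369) and ENSECAG00000025060 (53098708 to 53118147). The other 2 are SCO1, a copper chaperone for cytochrome c oxidase (53142150 to 53155784), and ADPRM, an ADP-ribose pyrophosphatase (53162840 to 53167963). All 5 passed the filter on low counts.

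ENSECAG00000019706, the most abundant of them, had 239.9 CPM ± 118 in T0, 189 CPM ± 88.7 in T1 and 385 CPM ± 155 in T2 (SD, n = 5, 8 and 10). Its lowest value of all libraries was 32.2 CPM in m3, and its T1 and T2 ranges overlapped. It rose from T1 to T2 by 1.02 ± 0.34 on the log2 scale (SE, edgeR's quasi-likelihood test, adjusted p = 0.0283), and did not pass in T1 minus T0 (-0.34 ± 0.40, adjusted p = 0.687) or T2 minus T0 (0.68 ± 0.40, adjusted p = 0.237). The call ended without T1 library m11 or T2 library m17 (adjusted p up to 0.0573), and when genes with low counts were kept (adjusted p = 0.0688).

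ENSECAG00000019568 and ENSECAG00000025060 were scarce and uneven. ENSECAG00000019568 had 39 CPM ± 37.2 in T0, 7.86 CPM ± 4.83 in T1 and 11.9 CPM ± 11.7 in T2, from 2.44 CPM in m12 to 88.2 CPM in m9 within T0 alone. ENSECAG00000025060 had 23.1 CPM ± 29.3, 3.66 CPM ± 2.14 and 9.31 CPM ± 9.46, with 71.6 CPM in m13 and 1.79 CPM in m10 within T0. Their log2 differences for T1 minus T0 were -2.31 ± 0.76 (adjusted p = 0.0695) and -2.67 ± 0.82 (adjusted p = 0.0548), which did not pass in edgeR and did in DESeq2 (adjusted p = 0.0294 and 0.0159). Without T0 library m9 the first was -1.75 (adjusted p = 0.22), and without T0 library m13 the second was -1.61 (adjusted p = 0.27).

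Of the 2 genes beyond the heavy chain cluster, ADPRM rose from T1 to T2 by 0.73 ± 0.18 (edgeR adjusted p = 0.00346), from 1.29 CPM ± 0.290 to 2.15 CPM ± 0.421 (SD, n = 8 and 10). Its counts were low, from 14 to 32 in the T1 libraries and from 20 to 51 in those of T2. In T2 minus T1, where ADPRM and ENSECAG00000019706 were called higher, 12.6% of all genes were called higher. SCO1 did not pass in any of the 3 comparisons and had a log2 difference of 0.18 ± 0.11 for T2 minus T1 (adjusted p = 0.22). In m3, where both locus genes were lowest, SCO1 had 4.12 CPM, within the 4.02 to 5.71 CPM of T1.

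**Figure D5:**
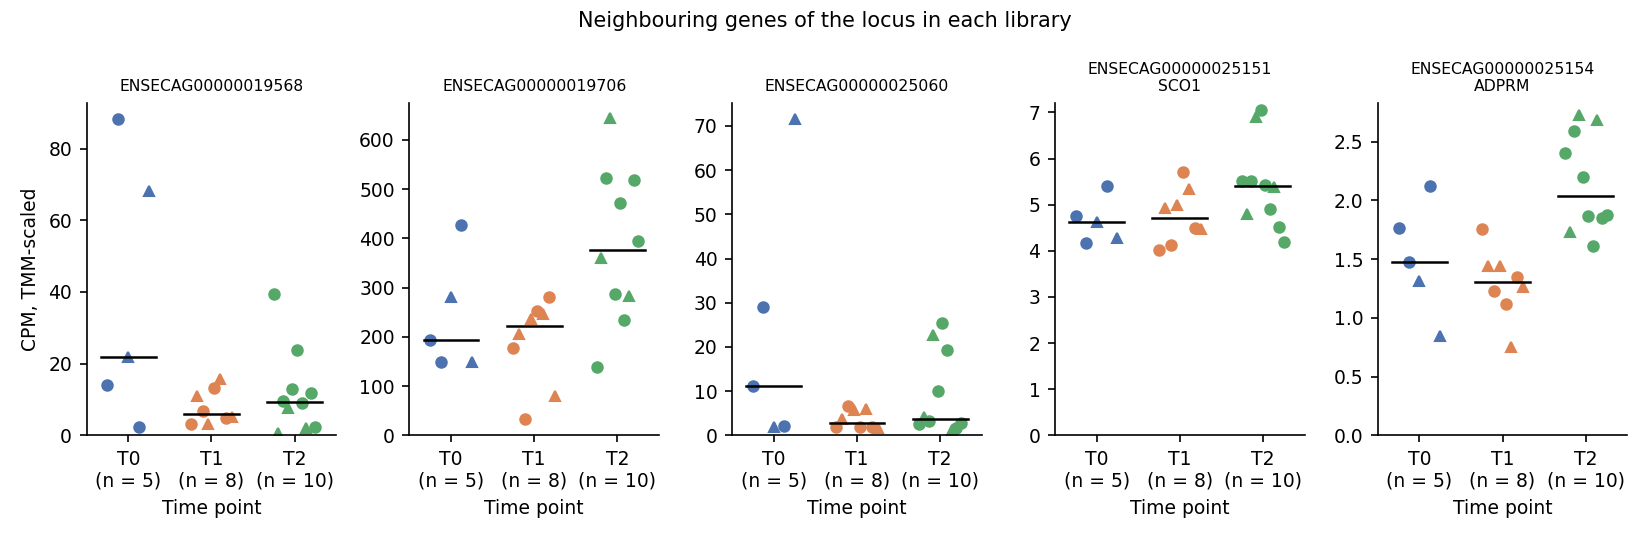
Level of 5 genes beside the locus in each library (CPM, separate linear axes from 0), by time point, with circles for males, triangles for females and a black line at the median. ENSECAG00000019706 has its lowest value, 32.2 CPM, in m3, and the 2 scarce genes ENSECAG00000019568 and ENSECAG00000025060 are highest in T0 libraries m9 (88.2 CPM) and m13 (71.6 CPM).

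The heavy chains assemble with light chains, myosin binding proteins and M-band proteins, and a list of 24 such thick filament partners and other sarcomeric heavy chains was set beside the locus, of which 21 had a tested identifier. In T1 minus T0, 5 rose, 2 fell and 14 did not pass, which is 33.3% called against 6.91% of all genes (3.57% higher and 3.34% lower), with a median log2 difference of 0.16 against -0.02 over all genes. MYL3 and MYL2, the slow essential and regulatory light chains, rose by 2.18 ± 0.41 (SE, edgeR adjusted p = 0.00332) and 2.14 ± 0.42 (adjusted p = 0.00396). MYH7B, a slow-type heavy chain gene, rose from 30.6 CPM ± 6.09 to 121 CPM ± 48.1, a log2 difference of 1.98 ± 0.38 (adjusted p = 0.0039). MYH7 rose by 1.86 ± 0.48 (adjusted p = 0.0197), but its adjusted p passed 0.05 when m8, m10 or m13 was left out (up to 0.0702). Without m3 the log2 differences were 1.79 for MYL3, 1.69 for MYL2, 1.85 for MYH7B and 1.60 for MYH7. MYL1, a fast light chain (-1.24, adjusted p = 0.0415), and MYBPH, a myosin binding protein (-2.85, adjusted p = 0.0486), fell, and are named here with their values known. The count of 5 that rose was 3 without m8, m10 or m13. The count of 2 that fell was 0 without m2, m7, m10, m11 or m13, and 1 without any of 10 others.

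In T2 minus T1, 5 of the 21 rose, 7 fell and 9 did not pass (57.1% called against 27.6% of all genes, 12.6% higher and 15.1% lower, median -0.09 against -0.01). The 4 with the smallest p were the same slow-type genes: MYL2 fell by 1.69 on the log2 scale (SE 0.32, edgeR adjusted p = 0.000582), MYL3 by 1.61 (SE 0.31, adjusted p = 0.000651), MYH7B by 1.48 (SE 0.29, adjusted p = 0.000843) and MYH7 by 1.83 (SE 0.37, adjusted p = 0.000946). Without m3 the log2 differences were -1.23 for MYL2, -1.21 for MYL3, -1.33 for MYH7B and -1.55 for MYH7. The 5 that rose, named after their values were seen, were the fast fibre genes MYL1 (1.38 on the log2 scale), MYLPF (1.14) and MYBPC2 (from 1497 CPM ± 806 to 3447 CPM ± 899), MYBPH (2.29) and the muscle ubiquitin ligase TRIM63 (0.95). The count of 5 was 2 without T1 library m2 or m11, and 3 without T1 library m1 or m7 or T2 library m21.

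In T2 minus T0, 2 of the 21 rose and 2 fell (19% called against 16% of all genes, 6.73% higher and 9.3% lower), a share near the background. SMYD1, a methyltransferase that binds myosin during sarcomere assembly, fell by 0.75 on the log2 scale (SE 0.16, edgeR adjusted p = 0.00493). The chaperone HSP90AA1 rose by 0.42 ± 0.12 (edgeR adjusted p = 0.0237) and the ligase TRIM54 by 0.53 ± 0.16 (adjusted p = 0.0268). The count of 2 that rose was 0 without m9 and 1 without m8 or m13, and the count of 2 that fell was 1 without m10 or m13. HSP90AA1 lost its call without m9 or m13 and TRIM54 without m8 or m9.

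A second list held 45 regulators of fibre type and of fast myosin transcription (calcineurin and its NFAT targets, MEF2, EYA and its homeobox partners, TEAD, myogenic factors, class II histone deacetylases and metabolic nuclear receptors), of which 37 had a tested identifier. In T1 minus T0, 1 rose and 3 fell (10.8% called against 6.91% of all genes, median 0.04 against -0.02). PPP3CA, a catalytic subunit of calcineurin, fell by 0.60 on the log2 scale (SE 0.16, edgeR adjusted p = 0.0213) and ESRRA, an orphan nuclear receptor of mitochondrial genes, rose by 0.45 ± 0.12 (adjusted p = 0.0233). SOX6, a repressor of slow fibre genes, fell by 0.82 (SE 0.24, adjusted p = 0.0417), and MAF, a large Maf factor, by 1.01 (SE 0.30, adjusted p = 0.0419). SOX6 lost its call without any 1 of 8 libraries and MAF without any 1 of 7, with adjusted p-values up to 0.163 (without m13) and 0.147 (without m10). PPP3CA lost it without m10 or m13 and ESRRA without m9 or m10. The count of 1 that rose was 0 without m9 or m10 and 2 without m12 or T2 library m17. The count of 3 that fell was 0 without m10 or m13, 1 without T1 library m1, m2, m7 or m11, and 5 without m8.

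In T2 minus T1, 2 of the 37 regulators rose and 10 fell (32.4% called against 27.6% of all genes, median -0.13 against -0.01). PPARA, a nuclear receptor of fatty acid oxidation, fell by 1.69 on the log2 scale (SE 0.22, edgeR adjusted p = 1.72e-05), TEAD1, which binds M-CAT elements of muscle genes, by 0.98 (SE 0.16, adjusted p = 9.47e-05) and EYA3, a cofactor of homeobox factors, by 0.63 (SE 0.14, adjusted p = 0.00185). The 2 that rose were both calcineurin catalytic subunits, PPP3CB by 0.67 ± 0.13 (adjusted p = 0.000773) and PPP3CA by 0.44 ± 0.13 (adjusted p = 0.0167), the second named after its values were seen. In T2 minus T0, edgeR called 0 higher and 6 lower (16.2% called against 16% of all genes). At an unadjusted p under 0.05 there were 4 higher and 12 lower, and the share of all genes at that threshold was not counted. DESeq2 and limma voom each called 2 higher, where they called 1126 and 1353 of all 11545 genes higher. TEAD1 had -0.84 ± 0.18 (adjusted p = 0.00501), NFIX, a factor of the fetal to adult switch of muscle genes, -0.74 ± 0.19 (adjusted p = 0.0139), PPARA -0.90 ± 0.25 (adjusted p = 0.0208) and MEF2A -0.52 ± 0.15 (adjusted p = 0.0222). Without T0 library m13 NFIX and MEF2A lost their calls and the count of 6 was 3, and PPARA lost its call without m9.

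The genes whose level followed gene A most closely over the 23 libraries, among the 6399 named genes whose log2 CPM averaged 2 or more, were LDHA (Pearson's r = 0.96), PKM (0.95), ACTN3 (0.95), PGK1 (0.94) and PEBP4 (0.93). LDHA, PKM and PGK1 encode enzymes of glycolysis and lactate formation, and ACTN3 the alpha-actinin of fast fibres. LDHA had r = 0.94 within T1, 0.89 within T2 and 0.93 without m3 over all time points. Within T2 the other 4 ranged from 0.71 (PEBP4) to 0.84 (PKM). The most opposite were TWF2, an actin-binding twinfilin (-0.96), AK3, a mitochondrial adenylate kinase (-0.93), and BDH1, which handles ketone bodies (-0.93), with r from -0.70 to -0.66 within T2. These correlations describe libraries that share time point, total count and fibre mix.

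For gene B the most similar genes were SMYD2 (r = 0.88) and the fast fibre genes TNNT3 (0.88), ATP2A1 (0.86), MYBPC2 (0.85) and TNNI2 (0.84), and the most opposite were MYL6B (-0.88), TALDO1 (-0.80) and MRPS6 (-0.80). This likeness rested on m3. Without m3, r was 0.46 for SMYD2, 0.31 for TNNT3, 0.19 for ATP2A1, 0.21 for MYBPC2 and 0.29 for TNNI2, and -0.30 for MYL6B, -0.43 for TALDO1 and -0.33 for MRPS6. The 5 most similar genes then became UBTF (0.77), POLDIP2 (0.75), SDHA (0.74), GOT2 (0.74) and MAPKAPK2 (0.74), named after their values were seen. Of these, SDHA, a subunit of succinate dehydrogenase, and GOT2, the mitochondrial aspartate aminotransferase, are mitochondrial enzymes. Gene A without m3 kept LDHA (0.93), PGK1 (0.93), ACTN3 (0.92) and PKM (0.92) among its 5 most similar genes.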

How the data were processed

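The libraries were read in 50 cycles with 6 technical repetitions, per the labels. FastQC, STAR, RSEM and DESeq2 are named, without versions, by the submitters' processing notes. How repetitions were pooled, the genome build and the strand setting are "not given in the sources used here". Deposited tables of genes and of transcripts hold RSEM expected counts, which were whole numbers already. The authors' deposited comparison tables give a log2 fold change with its standard error, a p-value, a test statistic (a score) and a mean normalized count (a signal level). Gene positions and symbols come from those tables, which annotate 9628 identifiers, 8842 with a symbol. Their group letters were matched to time points by mean normalized count, and the sign by comparison with the fit below.

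Genes were filtered with edgeR's filterByExpr (minimum count 10, minimum total 15), leaving 11545, and scaled by TMM. One robust quasi-likelihood fit of the 3 time points (edgeR 4.0.16, R 4.3.3) gave all differences, and 2 others added sex or sex by time point. Benjamini-Hochberg adjustment ran over all tested genes, with a threshold of 0.05. The SE is the absolute log2 difference divided by the root of F. Log2 CPM used a prior count of 2. The test was checked on simulated data. Total counts of 12185608 or more leave counting error small for the 2 locus genes, and the spread between libraries limits precision.

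The genes, lists, tests and naming rule were chosen with earlier results of these data known. Named genes are the locus genes, MYH7, the called genes with the 4 smallest p in each list and comparison, and the 5 most similar and 3 most opposite genes by Pearson's r. One gene that this rule names is not reported here. Correlations used permutation tests (exact for T1, 100000 resamples for T2, scipy 1.17.1). Alternatives were median ratio scaling, no filter, DESeq2 1.42.0, limma 3.58.1 voom weighting each library, sex as a covariate, only the 2 time points compared, mitochondrially encoded genes taken out, and each library left out in turn. No reference sequence was used.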

Additional observations from a re-analysis of the deposited data

Results flagged for a closer look

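Within each time point (5, 8 and 10 libraries) the gap between an extreme library and the next was compared with the group's range. This was done over 33 sets of values of the locus genes, MYH7 and the neighbouring genes. Chance alone marks about 1 in 20 such sets. In T1, library m3 lay far below the others for gene B, with a log2 CPM of 8.19 against 13.1 in the next library, and for the sum of both locus genes, with 8.55 against 13.1. In T2, library m23 lay above the others in the MYH7 share of the 3 heavy chains, with 42.7% against 25.9% in the next library. Gene A gave no such gap in any time point, and in T1 both m3 and m11 were low.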

How the results depend on the processing

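The 6 time point differences of the 2 locus genes moved by less than the SD between libraries under every alternative run. For gene A, T1 minus T0 stayed between -3.43 and -3.38 over 6 other settings and between -3.81 and -3.08 over 23 fits that each left out 1 library, and T2 minus T1 between 2.82 and 2.99 and between 2.65 and 3.23. For gene B, T2 minus T1 lay so near 0 that its sign changed between settings (-0.06 to 0.00). The sex difference and the sex by time terms stayed past no threshold in any fit. No paired analysis was possible because the labels do not tie libraries m1 to m23 to individual horses.

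Counts of called list members were small and moved. The tools also differed in their calls over all 11545 genes. In T1 minus T0, edgeR called 412 higher and 386 lower, DESeq2 650 and 502, and limma voom 752 and 724. In T2 minus T0 these totals were 777 and 1074, 1126 and 1193, and 1353 and 1568 in the same order. Differences in list counts between tools are therefore not read as results about the list members. Thick filament partners lower in T1 than T0 (2) numbered 0 when low counts were kept or with only the 2 time points compared, 1 in limma voom with sample weights or with sex as a covariate, and 0 to 2 with 1 library left out. Those higher in T1 (5) ranged from 3 to 5 with 1 library left out. Those higher in T2 than T1 (5) numbered 2 without the filter and 2 to 5 with 1 library left out. Those higher in T2 than T0 (2) numbered 4 in limma voom and 0 to 3 with 1 library left out, and those lower (2) numbered 1 without the filter or with only the 2 time points compared and 1 to 2 with 1 library left out. Regulators higher in T1 than T0 (1) numbered 3 in DESeq2, 5 in limma voom, 2 with sex as a covariate, 3 with only the 2 time points compared and 0 to 2 with 1 library left out. Those lower (3) numbered 1 without the filter, 0 with only the 2 time points compared and 0 to 5 with 1 library left out. Regulators higher in T2 than T0 (0) numbered 2 in DESeq2 or limma voom and 0 to 1 with 1 library left out, and those lower (6) ranged from 3 to 9. The correlations that passed, 0.86, -0.86 and -0.91 in T1 and 0.70 in T2, became 0.67, -0.22, -0.095 and 0.43 without the 2 libraries farthest from the median. The difference in share between the sexes ranged from -13.8 to -9.72 percentage points with 1 library left out. The cause of these changes was not tested. Short reads from close paralogs limit the split between the 2 genes.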

Other observations

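The share of gene A in the locus counts was set beside sex after the values had been seen. In T0 it was 70.8% and 75.9% in the 2 females and 41.5% to 44.8% in the 3 males, without overlap. In T2 it was 50.3%, 51.8% and 58.6% in the 3 females and 39.5% ± 15.2 in the 7 males (SD), of which m19 (64.8%) lay above every female. In T1 the order was the other way, with 9.75% ± 6.92 in females and 11.4% ± 7.53 in males (SD, n = 4 each), but without m3 the males averaged 7.95% ± 3.45 (SD, n = 3), below the females. Over the 3 time points males were lower by 11.8 percentage points, with an exact two-sided p of 0.0308 over all 84000 arrangements of sex within time points. This p is unadjusted and comes from a comparison picked because of its values. It was 0.0592 without m10, 0.0694 without m13 and 0.0609 without m15, and 0.0081 without m19.

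In library m3, MYH7 took 66049 CPM and the 2 locus genes 375 CPM, both on the TMM-scaled library size. The 3 genes together held 4.38% of the unscaled counts of m3, below the highest T1 value of 5.44%. The CPM values and this percentage are on different scales and cannot be set against each other. The adipocyte markers summed to 281 CPM in m3 and 323 CPM in m11, against a T1 median of 163 CPM. In m3, LPL had 147 CPM and FABP4 132 CPM, while ADIPOQ had 2.10 CPM, below its median of 3.05 CPM over all libraries, and the part of these values in the heavy chain levels was not tested.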
